A study of Mus musculus with 8 samples.

Results

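Transfer RNA (tRNA) genes and their genomic copies were followed through chromatin accessibility data from primary lung fibroblasts of the mouse. The members were all rows of the deposited table of open chromatin regions (OCRs) and repeats whose identifier carried the repeat class tRNA. They numbered 3160 of 4835895 rows, under 60 names and 21 isotypes (the amino acid carried), and 419 of them shared at least 1 bp with 366 of the 185268 OCRs. In ATAC-seq a transposase cuts DNA where chromatin is open, and the read ends in a region measure how often it did. Fibroblasts of 4 cGAS knockout (KO) and 4 wild-type (WT) animals gave 1 library each, 2 labelled female and 2 labelled male in either genotype, and libraries are named by genotype and replicate (KO F1, WT M2). cGAS is the cytosolic DNA sensor that starts the type I interferon response, and the series asked whether chromatin accessibility changed in its absence. The sources used here give neither the knockout allele nor the strain or age of the mice. All cultures of both genotypes were primary lung cells kept in serum-containing medium at reduced oxygen. Gene starts, fibroblast markers and the Cgas locus were not analysed here, because the annotation at hand was of another genome build than the table.

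A tRNA pairs its anticodon with a codon of the messenger RNA and delivers the matching amino acid to the ribosome. tRNA genes are transcribed by RNA polymerase III from promoter elements that lie inside the short gene itself, and genes in use sit in nucleosome-poor chromatin. The repeat annotation places these genes in the same class as tRNA pseudogenes and tRNA-like fragments. Alanine tRNA is the ancestor of the rodent BC1 RNA and of the ID family of short interspersed elements, so sequences resembling tRNA-Ala are scattered through rodent genomes. In the names of the table the letters after the amino acid give the codon, (m) marks a mitochondrial tRNA, Met-i is the initiator that starts translation and SeC is selenocysteine, the amino acid inserted at certain stop codons.

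Table totals ranged from 43.2 to 72.9 M counts per library, and OCR rows held 64.6 to 76.4% of them. Levels are given as CPM, scaled to all table counts of the library, and, between copies, as CPM per kb of the row. All positions are the GRCm39 ones that the table gives. A read end that lay in a tRNA row and in an OCR added an equal fraction to each, so copies inside an OCR hold only a part of their own read ends. The library labelled KO F2 (female) had 17.4 CPM in 15 OCRs of the first 2 Mb of the Y chromosome, against 23.3 to 27.98 CPM in the male-labelled libraries, and no remaining female-labelled library exceeded 0.04 CPM. Comparisons of KO with WT and the test of the sex labels were therefore also computed without KO F2. The first principal component of the OCRs that hold no tRNA row took up 44.9% of their variance. Its scores were positive in KO F2 (166), KO M2 (114), WT F2 (120) and WT M1 (114) and negative in KO M1 (-82.4), KO F1 (-191), WT M2 (-104) and WT F1 (-137), so it did not separate the genotypes. In bulk libraries, fewer cells with an open locus and less cutting per cell cannot be told apart.

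A larger share of tRNA rows than of the rest of the repeats lay in OCRs. Counting rows of a single part, 13.2% of 3148 tRNA rows shared sequence with an OCR, against 4.19% of all 4194493 repeat rows. Among rows of 37 to 76 bp, the lengths of 2881 of these tRNA rows, the shares were 12.3% of tRNA rows and 4.13% of all repeat rows. Of the other classes with at least 500 rows, rRNA rows had a share as high (13.3% of 1388), which was 3.47% at those lengths, and the others had at most 7.41%. Rows are not replicates, and these shares are given as a description with no test. OCRs were called from the same reads, so that copies in OCRs had higher levels follows from how they were chosen and was not tested. Copies in OCRs had a median of 6.23 CPM per kb and a median length of 72 bp, and copies outside had 0.241 CPM per kb and 63 bp. Of the 419 copies, 385 lay wholly inside their OCR. No read end was counted in any of the 6 mitochondrial chromosome rows of the table, 3 of which are tRNA rows.

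Length and isotype separated the open copies from the rest. A mature tRNA is about as long as rows of 70 to 90 bp, and 31.9% of the 925 rows of that length overlapped an OCR. Of the 2221 rows under 70 bp, 5.18% did. Ala made up 1940 of the 3160 rows (61.4%), and 6.55% of the Ala rows overlapped an OCR, against 23.9% of the 1220 rows of the other isotypes. At 70 to 90 bp the share was 11.1% of 334 Ala rows and 43.7% of 591 other rows, whereas under 70 bp it was 5.60% of 1606 Ala rows and 4.07% of 615 other rows. The isotypes thus parted among rows of full length and hardly among shorter ones. Within Ala, the name tRNA-Ala-GCY stood apart, with 8 of its 10 copies in OCRs and a median of 11.5 CPM per kb for these. The variant name tRNA-Ala-GCY_v had 80 of 1278 copies in OCRs (6.26%) with a median of 1.42 CPM per kb. tRNA-Ala-GCA had 22 of 368 copies in OCRs (5.98%) at 1.68 CPM per kb, and tRNA-Ala-GCG had 17 of 284 (5.99%) at 2.68 CPM per kb.

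**Figure D1:**
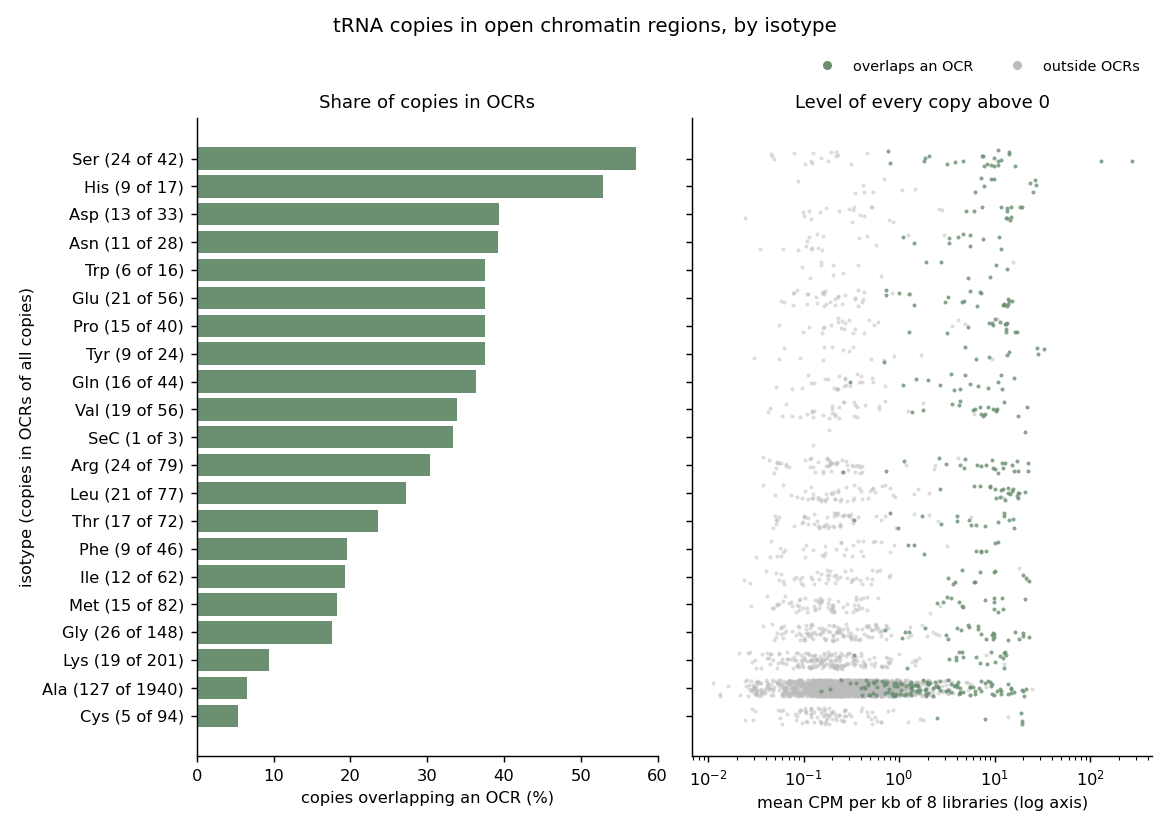
The bars give the percent of copies of each isotype that overlap an OCR, and each point is the mean level of a copy over 8 libraries in CPM per kb on a log axis (green in OCRs, grey outside). Ser (57.1%) and His (52.9%) have the highest shares and Cys (5.32%) and Ala (6.55%) the lowest, and the 2 points farthest right are copies of tRNA-Ser-TCA(m).

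Across isotypes the share of copies in OCRs ran from 5.32% of 94 Cys copies to 57.1% of 42 Ser copies. His followed Ser with 9 of 17 copies (52.9%). Asp, Asn, Trp, Glu, Pro, Tyr and Gln lay between 36.4 and 39.4%. All copies lay in OCRs for 6 of the 60 names (Arg-CGA, Arg-CGA_, Arg-CGG, Ser-TCA, Ser-TCA_ and Thr-ACG), which hold 14 copies between them, and no copy did for 4 names with 13 copies (Gln-CAA_v, Glu-GAG, Ile-ATC and Leu-TTA(m)). Initiator methionine, tRNA-Met-i, had 8 of 18 copies in OCRs (44.4%), against 2 of 15 for the elongator name tRNA-Met (13.3%). The variant name tRNA-Met_v had 5 of 49 (10.2%). Rows of 70 to 90 bp made up 11 of the Met-i, 7 of the Met and 10 of the Met_v copies, so name and length are not told apart here. RefSeq (GRCm38) lists 407 nuclear tRNA genes with a named amino acid, and its counts per amino acid differ from those of the table: 33 Ala genes beside 1940 Ala rows, and 22 Ser genes beside 42 Ser rows.

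Cysteine tRNA combined many rows of full length with few open ones. Of 94 Cys rows, 69 were 70 to 90 bp long and 5 overlapped an OCR, whereas 48.5% of the 522 rows of that length of isotypes other than Ala and Cys did. Chromosome 6 held 62 of them between positions 14813748 and 48346877, and 58 of these were of full length. RefSeq places 48 of its 56 Cys genes on chromosome 6 as well. A single chromosome 6 copy overlapped an OCR, at chr6:47955931-47956002, with 19.4 CPM per kb. The other 61 had a median of 0.161 and a highest value of 0.857 CPM per kb, beside 0.241 CPM per kb for all tRNA copies outside OCRs. The open chromosome 6 copy had 1.24, 1.64, 1.41 and 1.30 CPM in KO F1, F2, M1 and M2, against 1.17, 1.60, 1.49 and 1.35 CPM in WT F1, F2, M1 and M2. It was among the steadiest copies tested, its highest library being 1.39 times its lowest. The 4 open Cys copies elsewhere lay on chromosomes 11 (7.84, 18.7 and 19.4 CPM per kb) and 17 (2.48 CPM per kb). Near-identical copies share reads, and the sources used here do not give how reads with several equal matches were placed, so levels of single Cys copies on chromosome 6 are uncertain.

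The highest levels of all belonged to a name of the mitochondrial kind. tRNA-Ser-TCA(m) at chr1:24654721-24654789 had 270.3 CPM per kb and the copy at chr2:22478049-22478117 had 129 CPM per kb, whereas the next copy, a tRNA-Tyr-TAC, had 32.4. Both lie in nuclear chromosomes, where copies of mitochondrial DNA are known to be inserted, and the name is the one given to a row of the mitochondrial chromosome at which no read end was counted. How reads with several equal matches were placed is not given in the sources used here, so the levels of both copies are uncertain. The chromosome 1 copy had 16.3, 15.9, 15.2 and 26.3 CPM in KO F1, F2, M1 and M2, against 30.7, 16.6, 9.12 and 19.0 CPM in WT F1, F2, M1 and M2. WT F1 and KO M2 were highest and WT M1 lowest, an order unlike that of the other tRNA copies described below. The 4612 bp OCR around it, chr1:24650647-24655258, had 2925, 2658, 2586 and 4141 CPM in the KO libraries, against 4930, 2872, 1723 and 3136 CPM in the WT libraries in the same order. The 877 bp OCR on chromosome 2 varied alike, from 53.0 CPM in WT M1 to 177 CPM in WT F1. Together these OCRs held 46.6 to 60.2% of all counts in tRNA-bearing OCRs in KO libraries and 35.9 to 71.3% in WT libraries. The other 2 nuclear copies of tRNA-Ser-TCA(m) lay outside OCRs with at most 0.105 CPM per kb.

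Below these, the highest copies were of Tyr, His and Ala. tRNA-Tyr-TAC at chr5:31045427-31045516 had 2.39, 3.42, 2.79 and 3.14 CPM in the KO libraries, against 2.38, 3.23, 3.63 and 2.37 CPM in the WT libraries, and a mean of 32.4 CPM per kb. Tyr copies at chr14:51326946-51327035 and chr3:19682946-19683034 followed with 28.7 and 27.5 CPM per kb. 3 His copies lay within 3 kb of each other on chromosome 2, at positions 122205975, 122207844 and 122208449, with 26.8, 25.4 and 26.6 CPM per kb. Another His copy, at chr3:96407682-96407753, had 23.3 CPM per kb. These levels differed little from one copy to the next beside the spread over libraries.

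Some copies outside every OCR matched copies inside, and their counts were not shared with an OCR. tRNA-Ala-GCA at chr4:126154435-126154490 had 1.29, 1.58, 1.21 and 1.13 CPM in the KO libraries, against 1.22, 1.49, 1.96 and 1.18 CPM in the WT libraries, a mean of 24.7 CPM per kb. On chromosome 11, tRNA-Ile-ATT at 68927829 (21.8 CPM per kb) and 68953146 (18.1) and tRNA-Trp-TGG at 68954319 (15.7) were next, and they lay inside or within 1 kb of a cluster with 15 open copies. The lowest copies in OCRs were 3 Ala rows of 46 to 65 bp with 0.152 to 0.250 CPM per kb. The row of 46 bp (0.250) lay wholly inside its OCR, and those of 59 bp (0.152) and 65 bp (0.190) overlapped theirs only in part. The overlap with an OCR row and the level of a copy therefore did not divide the rows in the same way.

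Open copies were grouped along the chromosomes. With gaps of at most 50 kb, 189 of the 419 open copies fell into 12 clusters of at least 5 copies. Chromosome 13 held 97 open copies, 92 of them in 4 clusters between 21344955 and 23714589, with up to 31 copies of 13 isotypes in a cluster. In RefSeq (GRCm38), 77 of the 105 chromosome 13 tRNA genes lie between the first and last of 55 histone genes of that chromosome. The cluster at chr3:96229390-96408834 held 24 open copies, among them 5 each of Asn, His and Glu. Chromosome 11 had clusters of 7 and 15 open copies. The cluster at chr1:170861511-170939084 had 23 open copies of Gly (9), Asp (5), Glu (4), Leu (3), Asn (1) and Val (1). Its 25 rows of 70 to 90 bp followed the same order of isotypes as the 25 tRNA genes that RefSeq lists between Fcgr4 and Cfap126, genes for an antibody receptor and a cilium protein.

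The main variation of the open copies ran between libraries within each genotype. Summed over the 419 copies, tRNA rows in OCRs had 181, 335, 216 and 319 CPM in KO F1, F2, M1 and M2, against 207, 335, 299.95 and 191 CPM in WT F1, F2, M1 and M2. KO F2, KO M2, WT F2 and WT M1, the libraries on the positive side of the component above, were the highest and the genotypes overlapped throughout. The same 4 libraries were the 4 highest for 19 of the 21 isotypes, for all 12 clusters and for 252 of the 315 open copies that passed the filter on low counts. In the OCRs that hold a tRNA row this order occurred in 196 of 366 (53.6%), beside 15117 of all 185268 OCRs (8.16%). The reverse order occurred in 37 tRNA-bearing OCRs and 27457 OCRs in all. tRNA-bearing OCRs had higher levels than OCRs at large (median 3.82 against 1.65 CPM). The shares of these orders among OCRs of like level are not given here. The component was computed without the tRNA-bearing OCRs, but from the same libraries, and what sets these libraries apart was not tested.

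**Figure D2:**
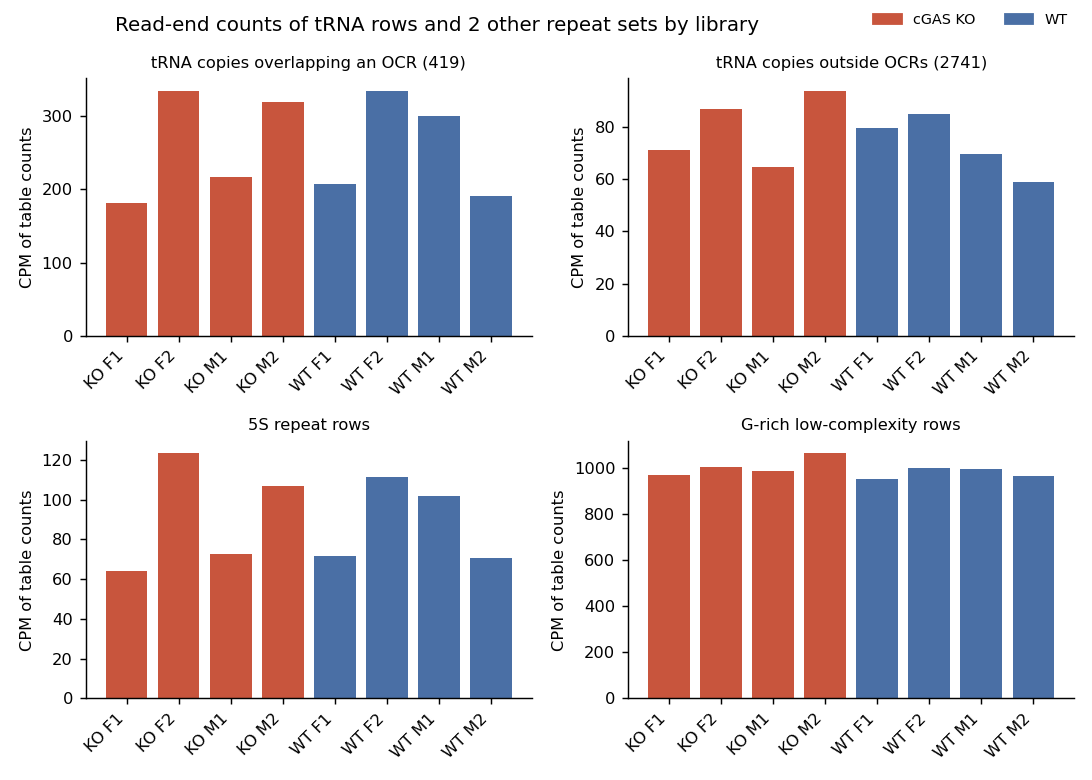
Bars give CPM of table counts per library for tRNA copies in OCRs, tRNA copies outside OCRs, 5S repeat rows and G-rich low-complexity rows (each axis starts at 0, KO red, WT blue). KO F2, KO M2, WT F2 and WT M1 stand above the others for tRNA copies in OCRs (299.95 to 335 against 181 to 216 CPM) and for 5S rows. G-rich rows stay between 953 and 1063 CPM, with the same libraries highest by a small margin.

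Copies outside OCRs and other repeats followed this order to unequal degrees. The 2741 copies outside OCRs had 71.2, 86.8, 64.6 and 93.9 CPM in the KO libraries, against 79.6, 85.0, 69.8 and 59.0 CPM in the WT libraries, so that WT F1 lay above WT M1 there. 5S rows, which resemble the ribosomal RNA that RNA polymerase III also transcribes, had 64.2, 123, 72.4 and 107 CPM in the KO libraries, against 71.6, 111, 102 and 70.6 CPM in the WT libraries. G-rich low-complexity rows, which are stretches of G-rich DNA, had 968, 1004, 987 and 1063 CPM in the KO libraries, against 953, 1000, 993 and 964 CPM in the WT libraries. The same 4 libraries were highest for G-rich rows, within a narrow range. 4.5SRNA rows, another product of RNA polymerase III, had 94.7, 137, 92.7 and 142 CPM in the KO libraries, against 99.9, 134, 112 and 82.5 CPM in the WT libraries, so that the same 4 libraries were highest there too. The highest library was 1.92 times the lowest for 5S rows and 1.72 times for 4.5SRNA rows, and between 1.25 and 1.497 times for 7SK, 7SLRNA, U6, BC1_Mm and HY1 rows. HY3 and HY4 rows, with few counts, varied by 1.98 and 2.44 times.

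**Figure D3:**
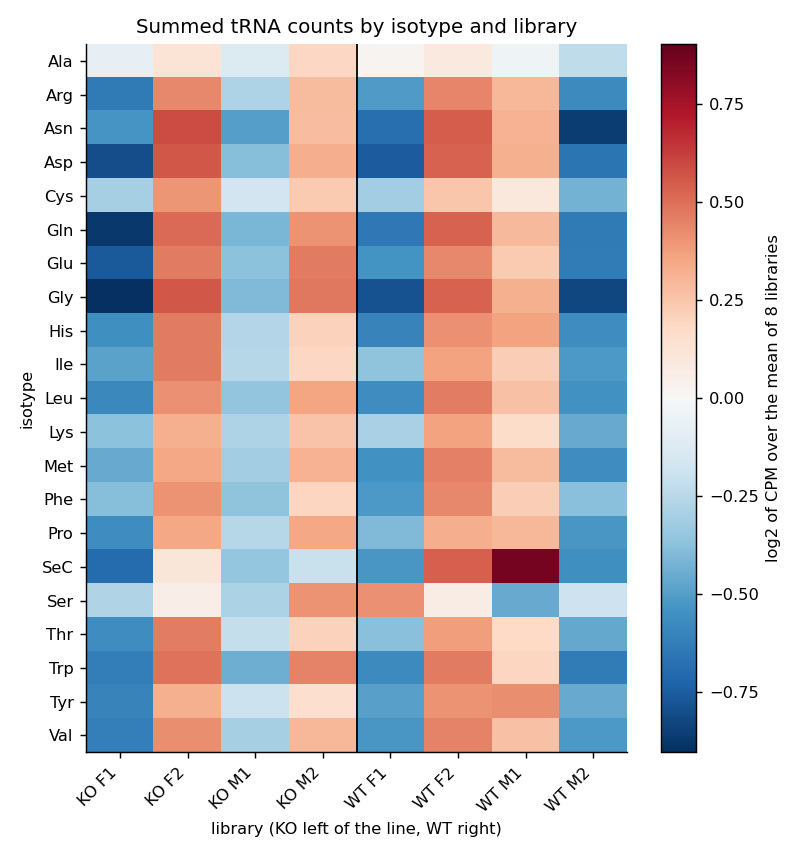
Each cell gives the log2 of the summed CPM of an isotype over its mean of 8 libraries (red above, blue below, KO libraries left of the line and WT libraries right). KO F2, KO M2, WT F2 and WT M1 are red in nearly every line, and Gly and Asn are among the isotypes with the widest range. Ser and Ala are the 2 isotypes with WT F1 in place of WT M1 among the 4 highest libraries.

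Isotypes differed in how far they followed the libraries. Ala, made up mostly of closed rows, had 75.6, 86.5, 72.9 and 90.7 CPM in the KO libraries, against 81.0, 84.5, 77.6 and 67.8 CPM in the WT libraries, a highest library of 1.34 times the lowest. Gly had 9.62, 26.5, 13.6 and 25.1 CPM in the KO libraries, against 10.4, 26.0, 22.5 and 10.2 CPM in the WT libraries, a ratio of 2.75. Ser, whose sum holds the mitochondrial-type copies, had 34.3, 43.2, 34.0 and 55.0 CPM in the KO libraries, against 55.2, 43.4, 30.2 and 36.5 CPM in the WT libraries. SeC had the highest ratio of any isotype (2.95), with 1.12, 1.97, 1.43 and 1.58 CPM in KO libraries and 1.27, 2.65, 3.31 and 1.24 CPM in WT libraries. Its counts came almost wholly from a single copy, at chr7:19035169-19035254. Between copies, the SD of log2 CPM over libraries had a median of 0.56 in clusters (180 copies tested) and 0.44 for open copies with no other within 50 kb (93 copies), at median levels of 8.19 and 7.21 CPM per kb. Of these 93 copies, 35 were Ala, so grouping and isotype are not told apart here, and the contrast was not tested.

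The chromosome 1 cluster varied most among the 12, from 8.85 CPM in KO F1 to 34.1 CPM in WT F2, and its variation was uneven along the cluster. Its KO libraries had 8.85, 34.0, 14.1 and 31.0 CPM, against 11.1, 34.1, 28.2 and 10.1 CPM in the WT libraries. 15 of the 25 full-length rows form 3 units with the same 5 genes in the same order (Glu, Gly, Asp, Leu, Gly), spaced 7628 and 7614 bp apart. The first unit had 1.59, 10.5, 2.89 and 8.37 CPM in KO F1, F2, M1 and M2, against 2.25, 9.68, 7.63 and 2.07 CPM in WT F1, F2, M1 and M2. The other 2 units had nearly the same values, and their highest libraries were 6.12 and 7.07 times their lowest, beside 6.59 times for the first. The other 10 full-length rows, of the same isotypes with Asn and Val added, had 5.22, 8.90, 6.72 and 9.50 CPM in the KO libraries, against 5.32, 10.4, 8.96 and 5.56 CPM in the WT libraries, a ratio of 1.99. The high libraries were the same in and around the units, and the ranges differed. Since the units are repeats of each other, the levels of single units are uncertain.

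**Figure D4:**
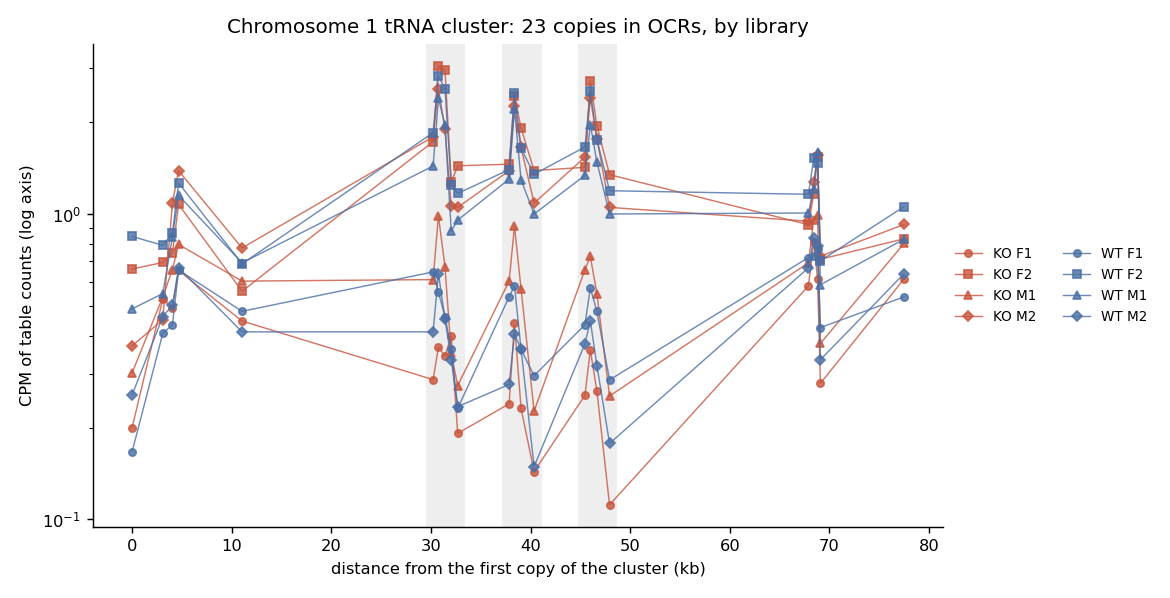
Each point is the CPM of an open tRNA copy in a library on a log axis, at its distance in kb from the first copy of the chromosome 1 cluster (KO red, WT blue, a marker for each replicate name, lines joining the copies of a library). In the 3 shaded units KO F2, KO M2, WT F2 and WT M1 lie well above the other 4 libraries, with unit sums up to 7.07 times apart, and outside the units the libraries lie closer together, at most 2.61 times apart, except at the first copy of the cluster (5.08 times).

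The OCRs around these copies showed the same contrast. The OCRs at chr1:170891418-170893168, chr1:170899237-170900785 and chr1:170906835-170908407, with 3 tRNA rows each, had highest libraries 4.26, 5.13 and 4.67 times their lowest. The OCR at chr1:170929333-170931069, which holds 4 tRNA rows downstream of the units, had 10.3, 22.0, 14.9 and 19.4 CPM in the KO libraries, against 11.6, 22.6, 21.0 and 11.7 CPM in the WT libraries, a ratio of 2.19. The other OCR with 4 tRNA rows, at chr3:19681962-19683609 (Arg, 2 Tyr and Ala), had 19.0, 36.7, 27.0 and 32.5 CPM in the KO libraries, against 20.2, 39.5, 39.6 and 23.1 CPM in the WT libraries, a ratio of 2.09. Of the 366 tRNA-bearing OCRs, 328 hold a single tRNA row. They were longer (median 712.5 bp) and higher (median 3.82 CPM) than OCRs at large (519 bp and 1.65 CPM).

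Between KO and WT fibroblasts, the share of counts in tRNA rows did not differ beyond the spread between libraries. All tRNA rows had 252, 422, 281 and 413 CPM in KO F1, F2, M1 and M2, against 287, 419.5, 369.7 and 250.3 CPM in WT F1, F2, M1 and M2. The mean was 342 ± 87.8 CPM in KO and 332 ± 77.1 CPM in WT (SD, n = 4 each; exact two-sided permutation p = 0.83). Copies in OCRs had 263 ± 75.7 CPM in KO and 258 ± 69.9 CPM in WT (exact permutation p = 0.886), and copies outside had 79.1 ± 13.5 CPM in KO and 73.3 ± 11.4 CPM in WT (exact permutation p = 0.514). The adjusted p of all 3 was 0.886, and the smallest p that 4 against 4 libraries can give is 0.0286. The difference for all rows, 10.4 CPM higher in KO, was -16.1 CPM without KO F2, -13.2 without KO M2, -4.52 without WT F1 and -16.6 without WT M2. Its sign was thus set by single libraries. The sums over tRNA-bearing OCRs were 5835 ± 913 CPM in KO and 5964 ± 941 CPM in WT (exact permutation p = 0.8; SD, n = 4 each). The OCRs around the tRNA-Ser-TCA(m) copies held 35.9 to 71.3% of these sums. Without them, the sums were 2125, 3147, 2515 and 2827 CPM in KO F1, F2, M1 and M2. In WT F1, F2, M1 and M2 they were 2051, 3216, 3177 and 2316 CPM, and these were not tested.

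No isotype differed between the genotypes in exact permutation tests of their sums. The fold of KO over WT ranged from 0.720 (SeC) to 1.10 (Cys) with a median of 1.03. The lowest p of the 21 was 0.371 (adjusted p = 1), that of SeC. The KO mean was the higher one for 19 isotypes in CPM of table counts but for a single isotype in CPM of repeat counts, where the median fold was 0.935. Leu averaged 26.8 ± 8.97 CPM in KO and 26.0 ± 9.48 CPM in WT (SD, n = 4 each). Arg averaged 18.4 ± 6.02 CPM in KO and 17.99 ± 6.44 CPM in WT, and Gly 18.7 ± 8.34 CPM in KO and 17.3 ± 8.18 CPM in WT. Tyr, the other isotype with a lower KO mean, had 13.1 ± 3.51 CPM in KO and 13.7 ± 4.72 CPM in WT. Ala averaged 81.4 ± 8.55 CPM in KO and 77.8 ± 7.19 CPM in WT, and Ser 41.6 ± 9.90 CPM in KO and 41.3 ± 10.7 CPM in WT.

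The remaining isotypes lay close together in the genotypes. Lys averaged 15.0 CPM in KO and 14.6 CPM in WT, Pro 13.6 in KO and 13.2 in WT, Ile 13.5 in KO and 13.04 in WT, Val 13.1 in KO and 12.9 in WT, and Asp 13.1 in KO and 12.6 in WT. Glu averaged 12.02 CPM in KO and 11.2 CPM in WT, His 10.7 in KO and 10.5 in WT, Thr 10.5 in KO and 10.1 in WT, and Met 9.55 in KO and 9.31 in WT. Cys averaged 7.85 CPM in KO and 7.12 CPM in WT, Gln 7.36 in KO and 7.17 in WT, Asn 5.13 in KO and 4.84 in WT, Trp 4.52 in KO and 4.19 in WT, and Phe 4.44 in KO and 4.41 in WT. The SDs of these 14 isotypes lay between 1.23 and 5.56 CPM, larger than each of the differences.

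Summed by name, no tRNA name was called at an adjusted p of 0.05 (edgeR's quasi-likelihood test on summed counts, Benjamini-Hochberg over 2069 repeat names, of which 0% were called). Of the 46 tRNA names tested, 0 had an unadjusted p under 0.05, beside 1.01% of all names, and DESeq2 also called 0. Their log2 folds ran from -0.56 to 0.05 with a median of -0.05. The count of names above 0 was 10, but 42 with scaling factors from OCR rows and 1 to 42 when a single library was left out, so no common direction was established. The names lowest in p with a higher fitted level in KO were tRNA-Cys-TGY, tRNA-Met_v and tRNA-Ala-GCG, at log2 folds of 0.05 ± 0.22, 0.05 ± 0.29 and 0.03 ± 0.14 (SE). Those with a lower fitted level were tRNA-SeC(e)-TGA, tRNA-Arg-CGG and tRNA-Gln-CAG, at -0.56 ± 0.39, -0.26 ± 0.36 and -0.17 ± 0.30 (SE). With scaling factors from OCR rows, the median of the tRNA names was 0.08 and that of all names 0.10, against 0.003 for all names in the first scaling. The median fell to -0.29 without KO F2 and was 0.19 without WT F2.

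Single copies gave the same picture. 379 copies, 315 in OCRs and 64 outside, passed the filter on low counts, with a median of 35.1 counts per library. edgeR's quasi-likelihood test, with the sex label in the model and Benjamini-Hochberg over 664194 rows of the table (0% called), called 0 of them, and the lowest adjusted p was 0.896. An unadjusted p under 0.05 was seen for 2 copies (0.528%), beside 3.21% of tested repeat rows and 5.06% of all tested rows. DESeq2 and limma voom called 0 copies as well, with 3 unadjusted p under 0.05 each. No share over all rows is given here for these counts. Limma voom covered 379 copies. DESeq2 fitted 3160 copies but gave an adjusted p to 278, so the others could not be called there. Log2 folds ran from -1.23 to 1.15 with a median of -0.01, against 0.003 over all tested rows, and 358 lay within 0.5 of 0. The 4 KO libraries did not overlap the 4 WT libraries at 2 copies (0.528%), beside 2.52% of repeat rows. KO was higher at 1 of them and lower at the other, beside 1.5% and 1.02% of repeat rows.

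**Figure D5:**
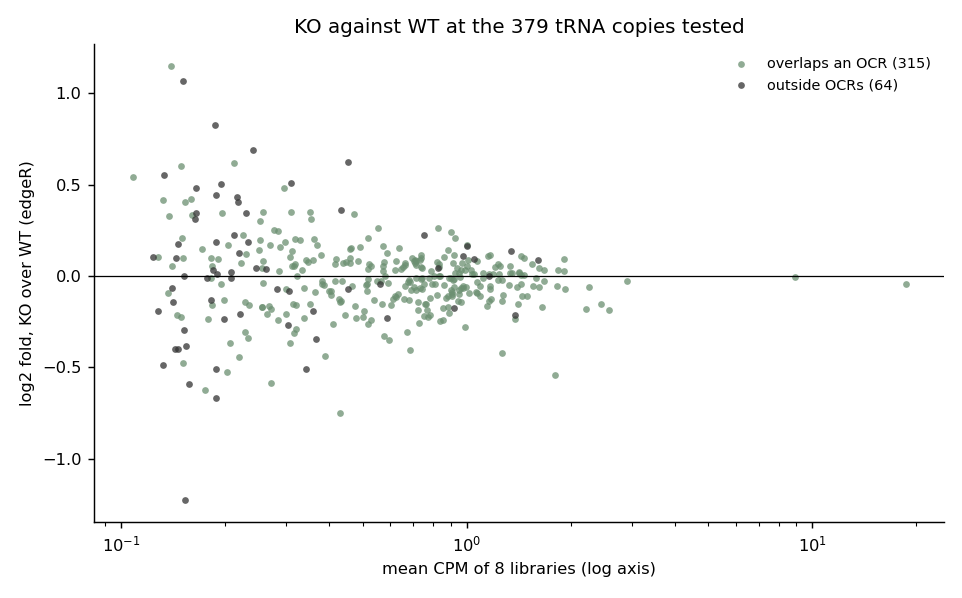
Each point is one of the 379 copies tested, with its mean CPM over 8 libraries on a log axis and its log2 fold of KO over WT from edgeR (green in OCRs, black outside). The edgeR folds centre on 0 (median -0.01), and the 4 farther than 0.8 from 0 are at copies of under 0.19 CPM.

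The copies with the lowest p were mostly thinly counted tRNA-Ala rows of under 70 bp, apart from the SeC copy (mean 1.80 CPM), and are given as values only. tRNA-Ala-GCY_v at chr6:115352368-115352429 had 0.159, 0.220, 0.123 and 0.289 CPM in the KO libraries, against 0.065, 0.119, 0.075 and 0.064 CPM in the WT libraries, without overlap (log2 fold 1.15 ± 0.52 SE, edgeR adjusted p = 0.969). tRNA-Ala-GCA at chr7:57006812-57006877 had 0.064, 0.051, 0.178 and 0.069 CPM in the KO libraries, against 0.240, 0.269, 0.166 and 0.184 CPM in the WT libraries, which overlap at KO M1 (-1.23 ± 0.50 SE, edgeR adjusted p = 0.896). tRNA-Ala-GCY_v at chr7:16625395-16625457 had 0.359, 0.356, 0.432 and 0.150 CPM in the KO libraries, against 0.499, 0.561, 0.512 and 0.561 CPM in the WT libraries (-0.75 ± 0.37 SE). It was the other copy without overlap. The next copies with higher levels in KO were tRNA-Met_v at chr14:64387816-64387871 (log2 fold 1.06) and tRNA-Ala-GCY_v rows at chr17:24334783-24334848 (0.83), chr1:131068057-131068122 (0.69) and chr14:63361893-63361948 (0.62). With lower levels in KO there were tRNA-Asp-GAY at chr11:7819777-7819848 (-0.67), tRNA-Ala-GCY_v at chr10:8775095-8775143 (-0.59) and the SeC copy (-0.54). Single libraries set the size of these: the Asp copy was at -0.22 without WT F2 and -1.04 without KO F2, the Ala copy at -0.23 without KO M2, and the SeC copy at -0.14 without WT M1.

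The copies with the highest levels had log2 folds smaller than their SE. The chromosome 1 copy of tRNA-Ser-TCA(m) had a log2 fold of -0.04 ± 0.28 (SE) and the chromosome 2 copy of -0.004 ± 0.31. The 3 highest Tyr copies were at -0.03 ± 0.24 (chromosome 5), -0.18 ± 0.26 (chromosome 14) and -0.15 ± 0.28 (chromosome 3). The 4 highest His copies lay between -0.07 and 0.03, and tRNA-Ala-GCA on chromosome 4 was at -0.21 ± 0.29. Their signs are not firm: 10 of the 20 named copies, all among these highest ones, changed sign under at least 1 alternative. The median SE over the 379 copies was 0.39 on the log2 scale, and the widest fold, -1.23 ± 0.50, had an adjusted p of 0.896 in edgeR's quasi-likelihood test, so a difference has to be well above that SE to be called.

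Of the 366 OCRs that hold a tRNA row, edgeR called 0 at an adjusted p of 0.05 (0% of all OCRs called, lowest adjusted p = 0.507). An unadjusted p under 0.05 was seen for 23 (6.28%), beside 9.83% of all OCRs, and the genotypes did not overlap at 11 (3.01%), beside 5.06% of all OCRs. KO was the higher genotype at 8 of these 11 and the lower at 3, beside 3.25% and 1.81% of all OCRs. The median log2 fold was -0.05, against -0.07 over all OCRs. Limma voom called 0, beside 0% of all tested rows. It had 32 unadjusted p under 0.05, and the share over all OCRs is not given here for that count. DESeq2 called 3, beside 1.45% of all OCRs. The tRNA rows in all 3 were thin: tRNA-Ala-GCY_v or tRNA-Lys-AAA rows with at most 0.087 CPM, too few to be tested themselves.

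The OCR at chr2:150515698-150516421 had 2.64, 5.35, 2.58 and 6.65 CPM in the KO libraries, against 1.40, 2.01, 1.22 and 1.22 CPM in the WT libraries (edgeR log2 fold 1.51 ± 0.32 SE, edgeR adjusted p = 0.507, DESeq2 adjusted p = 0.0101). All KO libraries lay above all WT libraries. The OCR at chr10:87665777-87666286 had 1.11, 2.25, 0.967 and 2.56 CPM in the KO libraries, against 0.480, 0.782, 0.677 and 0.419 CPM in the WT libraries (edgeR adjusted p = 0.507, DESeq2 adjusted p = 0.0300). The OCR at chr9:64684440-64685238 had 1.18, 1.19, 1.78 and 1.12 CPM in the KO libraries, against 1.56, 2.41, 3.61 and 3.50 CPM in the WT libraries (edgeR adjusted p = 0.519, DESeq2 adjusted p = 0.0131). KO M1 exceeded WT F1 there. The OCR around the SeC gene copy, chr7:19035095-19037121, had 11.1, 33.8, 21.6 and 27.0 CPM in the KO libraries, against 23.6, 71.6, 77.9 and 26.3 CPM in the WT libraries, with the genotypes overlapping (log2 fold -1.15 ± 0.38 SE, edgeR adjusted p = 0.674). WT F2 and WT M1 were the highest libraries at this OCR and at the SeC copy alike.

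The genotype difference at tRNA copies was not shown to differ between the sex labels. The interaction term of edgeR's quasi-likelihood fit was called at 0 of 379 copies (0% of all rows called), and 0 copies had an unadjusted p under 0.05, beside 1.8% of all rows. Without KO F2, a setting chosen after seeing that its Y chromosome counts go against its label, it was called at 0 of 400 copies (0% of all rows called), and 12 (3%) had an unadjusted p under 0.05, beside 2.73% of all rows. Of 10 names of RNA polymerase III products other than tRNA, 7 had enough counts to be tested and 0 were called in edgeR (0 with an unadjusted p under 0.05). 5S rows had 91.6 ± 28.0 CPM in KO and 88.9 ± 20.9 CPM in WT (SD, n = 4 each; log2 fold -0.05 ± 0.25 SE). BC1_Mm rows, the descendants of tRNA-Ala, had 358 ± 25.6 CPM in KO and 345 ± 34.0 CPM in WT (log2 fold -0.01 ± 0.05 SE). 7SK (the regulator of transcription elongation), 7SLRNA (the RNA of the signal recognition particle), U6 (a spliceosome RNA), 4.5SRNA and HY1 (a Y RNA) had log2 folds of -0.07, 0.08, 0.001, 0.04 and -0.21. HY3, HY4 and HY5, with 35.5, 19.4 and 1.5 mean counts per library, were not tested.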

How the data were processed

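ATAC-seq was measured in 8 libraries of primary lung fibroblasts, 4 cGAS KO and 4 WT. The authors made the deposited estimated counts with featureCounts 2.0.3, per the file headers, over peaks and repeats together, from read 5' ends of pairs with both ends aligned, with a read end in several regions split equally. Build GRCm39 and the tools MACS2, bedtools, Picard, SAMtools, Bowtie2 and Trim Galore are named in the submitters' processing notes. Depth was 43.2 to 72.9 M counts per library, and counting error is largest at copies of few counts.

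Counts were rounded and tested with edgeR 4.0.16 (R 4.3.3) in a quasi-likelihood fit with the sex label, TMM factors and filterByExpr over the whole table. Repeat names with a mean of at least 100 counts were tested as sums, and shares and isotypes by exact permutation over 70 assignments. The tests were checked on simulated counts of 20379 rows, with 25 tRNA copies and 25 OCRs altered at each size of difference. Where levels differed 1.5 times, 0% of the altered rows in either set were recovered. Where they differed 2 times, recovery was 4% for copies and 20% for OCRs. Where they differed 4 times, it was 72% for copies and 88% for OCRs. Among 97 calls, 5 were false. Adjustment there ran over the 20379 simulated rows, which held altered rows, and in the data over 664194 rows, of which 0% were called. Recovery in the data may thus be lower than these values. Most differences of 2 times or less at copies and OCRs would be missed, and how many larger ones would be was not tested. Alternatives used DESeq2 1.42.0, limma 3.58.1 voom, other scaling, filters and covariates, and leaving out each library. SDs of log2 values used a prior count of 0.5.

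The members and lists were chosen with earlier results of these data known. With no copy called, the copies named were the 5 with the lowest p in each direction and the 10 with the highest CPM per kb. The 3 names with the lowest p per direction, every isotype, the 5 OCRs with most tRNA rows and every name of the polymerase III list were also named, and others were chosen after their values were seen. RefSeq tables (GRCm38) gave gene counts and gene order only. No tRNA sequence and no polymerase III machinery gene was analysed here.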

Additional observations from a re-analysis of the deposited data

Results flagged for a closer look

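Summed tRNA levels, isotypes, clusters, named copies and polymerase III names gave 66 values per library, or 132 groups of 4 libraries of a genotype. In 4 of them a single library lay far from the other 3, where chance alone flags about 1 group in 20. tRNA-Ser-TCA(m) at chr1:24654721-24654789 had 26.3 CPM in KO M2, and the other KO libraries had 15.2 to 16.3 CPM. tRNA-Ala-GCA at chr7:57006812-57006877 had 0.178 CPM in KO M1, and the other KO libraries had 0.0508 to 0.0694 CPM. Without KO M1 its log2 fold was -1.87, against -1.23 with all libraries. tRNA-Ala-GCY_v at chr17:24334783-24334848 had 0.0508 CPM in KO F2, and the other KO libraries had 0.287 to 0.329 CPM. tRNA-Asp-GAY at chr11:7819777-7819848 had 0.442 CPM in WT F2, and the other WT libraries had 0.151 to 0.166 CPM. These last 3 copies had few counts.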

How the results depend on the processing

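Copies, names, isotypes and polymerase III names had 0 calls under every alternative run. Over all rows, DESeq2 called 2679 (1.42% of the rows it fitted). With a filter of a mean of at least 1 count, edgeR called 286 rows of the table. Among these were 0 of 1648 copies and 0 of 366 tRNA-bearing OCRs (lowest edgeR adjusted p of the OCRs 0.0552). The other alternatives for single rows called 0 rows in all. Of 300 alternative log2 folds for the 20 named copies, 52 changed sign, at 10 copies near 0, and 0 were called. DESeq2 gave no adjusted p for several of the named copies, which could not be called there. For tRNA-Ser-TCA(m) (chromosomes 1 and 2), tRNA-Tyr-TAC (chromosome 5) and tRNA-His-CAY_ (chromosome 2 at 122205975 and 122207844, and chromosome 3), scaling factors from OCR rows gave 0.0415, 0.0736, 0.0511, 0.0159, 0.0447 and 0.0508 and DESeq2 0.0555, 0.0883, 0.062, 0.0271, 0.0612 and 0.0616. Limma voom gave 0.0831 and 0.180, and the replicate block 0.0179 and 0.0763, for the Ser copies, and the block 0.0158 for the chromosome 3 His copy. The His copy at 122208449 was at -0.0113 with upper quartile factors and -0.0994 in limma voom. With each library left out the ranges were -0.29 to 0.23 and -0.28 to 0.31 (Ser), -0.15 to 0.14, -0.34 to 0.0073 and -0.34 to 0.0528 (Tyr, chromosomes 5, 14 and 3), -0.23 to 0.14, -0.37 to 0.20 and -0.15 to 0.25 (His, chromosome 2 at 122205975, 122207844 and 122208449), -0.23 to 0.24 (His, chromosome 3) and -0.34 to 0.034 (tRNA-Ala-GCA, chromosome 4). DESeq2 called 3 tRNA-bearing OCRs (lowest adjusted p = 0.0101), edgeR and limma voom 0.

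KO minus WT was 10.4 CPM over all tRNA rows and 4.68 over those in OCRs. In CPM of repeat counts it was -64.5 and -66.2, and leaving out each library gave -16.6 to 40.3 and -19.3 to 31.9. It was negative without KO F2 (-16.1 and -19.3), KO M2 (-13.2 and -14.1), WT F1 (-4.52 and -12.4) or WT M2 (-16.6 and -17.6). Without copies of mitochondrial names, chosen after seeing the data, it was 10.9 and 5.17. The median log2 fold of copies ran from -0.25 to 0.23 and that of tRNA-bearing OCRs from -0.20 to 0.12 with each library left out. In limma voom the median was -0.22 for copies and -0.17 for tRNA-bearing OCRs, against -0.02 over all rows. With scaling factors from OCR rows it was 0.08 and 0.04, against 0.07 over all rows. With a replicate block, 0 copies, 0 OCRs and 0 names were called, and the median over names was -0.01. The replicate numbers did not pair the samples: deviations of same-numbered libraries correlated at 0.58 (F1), 0.61 (F2), -0.29 (M1) and -0.46 (M2) across OCRs. Copies of few counts limit the precision.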
